A study of Mus musculus with 7 samples.

Results

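Among 5 embryos that developed in 1 diabetic dam, 2 had a neural tube defect (NTD) and 3 did not, and their whole-embryo transcript levels were compared. The 5 were chosen by their labels, out of 7 embryos of the series, each on an array of its own. All were of the inbred FVB strain and were taken at embryonic day 10.5 (E10.5). The dam had been made diabetic with Streptozotocin, which destroys the insulin-producing beta cells, and the 2 control embryos came from 1 untreated dam. The embryos with and without NTD are therefore littermates under the same exposure. A p-value from the fit across all arrays is set against the spread within the 3 groups, which comes from littermates of these 2 litters. No source used here tells the kind or level of the defect. The question was which transcripts differ between exposed embryos in which the neural tube had closed and those in which it had not.

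The neural tube forms when the edges of the neural plate rise, bend towards each other and fuse at the dorsal midline, under a covering of surface ectoderm. Closure needs polarized cell movements, actin-based bending of the plate, dividing neural progenitors and folate-dependent one-carbon metabolism, and mouse mutants in genes of each of these have open neural tubes. At E10.5 closure is complete in a normal embryo, so the arrays recorded the state after closure had or had not taken place, in RNA of the whole embryo.

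Each array gave a linear MAS5 intensity, here called signal, for 22690 probe sets, deposited on a scale that the authors had set so that the trimmed mean was 500.2 on all 7 arrays. The 14554 probe sets whose signal reached the 40th percentile of the array (131 to 146) in at least 2 embryos were tested. Neural, heart, somite, blood and endothelial markers were measured in all 7 embryos. As examples, Hba-x, an embryonic globin, had signals of 20641 to 31058 and Actc1, a cardiac actin, of 4731 to 6267, while the trophoblast marker Tpbpa was below the filter. Several embryos stood apart from their group. Exposed embryo 1 without NTD had a signal of 4661 for Rbp4, a retinol carrier made by yolk sac endoderm, against 276 to 421 in the other 6 embryos, and of 2897 against 144 to 252 for Apoa2. Exposed embryo 2 with NTD differed from its 4 littermates in Xist, which coats and silences 1 of the X chromosomes in females, with signals of 12.7 in it and 1830.2 to 3287 in the others at 1427262_at. It was the single exposed embryo with a clear signal of Eif2s3y, a gene of the Y chromosome, at 245 against 0.549 to 2.76. The controls were like that embryo, at 12.7 and 24.1 for Xist and 227 and 203 for Eif2s3y, and its part in any likeness of embryos with NTD to the controls was not tested. In exposed embryo 1 with NTD the control probe set for the 3′ end of 18S ribosomal RNA read 6236, against 123 to 432 in the other 6 embryos. The ratio of 3′ to 5′ signals of beta-actin was 1.09 and 1.07 with NTD and 1.11 to 1.17 without, and that of Gapdh 0.838 and 0.822 against 0.840 to 0.915. Both ratios thus lay lower with NTD, without overlap, and their part in the differences below was not tested.

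The embryos with NTD were no further from those without than the latter were from each other. The share of tested probe sets more than 2-fold apart was 2.33% between both embryos with NTD. It was 3.34%, 3.43% and 4.54% between the embryos without NTD, and 1.52% to 4.34% over the 6 pairs of an embryo with and an embryo without. The closest pair of exposed embryos crossed the groups, since exposed embryo 2 without NTD and exposed embryo 1 with NTD had 1.52% of probe sets beyond 2-fold and a correlation across probe sets of 0.975. Exposed embryo 1 without NTD took part in the widest pairs of both kinds.

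**Figure D1:**
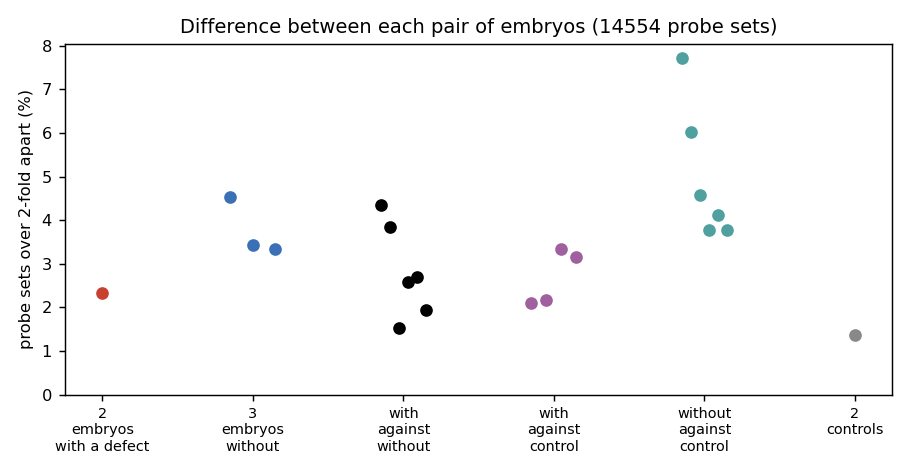
Share of the 14554 tested probe sets whose signals lay more than 2-fold apart, in percent, for each pair of embryos (1 point per pair), grouped by what the pair joins. Pairs with against without NTD (1.52% to 4.34%) reach no higher than the pairs among embryos without NTD (3.34% to 4.54%).

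With limma no probe set passed the test. On log2 signals, fitted to the 3 groups over all 7 arrays, 0 of 14554 probe sets (0%) had a Benjamini-Hochberg adjusted p under 0.05, and the smallest adjusted p was 0.999. At an unadjusted p under 0.05 there were 440 probe sets, 3.02% of those tested, of which 239 were higher and 201 lower with NTD. Evenly spread p-values would give a larger share, of 0.05. Welch's test alone gave 349 probe sets at an unadjusted p under 0.05, and the Cyber-T type of regularized test gave 682. After Benjamini-Hochberg adjustment Welch's test left 0 (0%) and the regularized test 1 (0.00687%), a count that depends on its setting (0 with a confidence in the pooled spread of 5 and 4 with 20, against 10). That probe set was 1439461_x_at of Nsmce4a, a subunit of the SMC5/6 complex, with signals of 632, 489 and 488 without NTD, 198 and 198 with it, and 206 and 423 in the controls. The study's methods combine both tests with a fold change, a false discovery rate in the former and detection flags. As an adaptation without the last 2 of these, 33 probe sets (0.227%) passed both tests at an unadjusted p under 0.05 and had mean signals more than 1.5-fold apart, 13 higher and 20 lower with NTD. All values of one group lay outside the range of the other in 1103 probe sets that were higher with NTD (7.58%) and in 1235 that were lower (8.49%). With 10 ways to split 5 embryos into 2 and 3, the exact permutation test, two-sided, has a smallest p of 0.1.

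The intervals show how precise the estimate was for each probe set taken singly. They do not give the size of difference that the adjusted test could have missed. Nkx2-6, with a ratio of mean signals of 4.73, was not called. The median standard error of a log2 difference was 0.20, and the median 95% interval reached 0.44 to either side, a factor of 1.36. For 12915 probe sets, 88.7% of those tested, the whole interval lay within 2-fold in both directions. Over all tested probe sets the median log2 difference was -0.0012 and 49.7% were higher with NTD. Ratios of mean signals beyond 2-fold were found at 70 probe sets, 28 of them higher and 42 lower with NTD, and Eif2s3y was among the former.

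**Figure D2:**
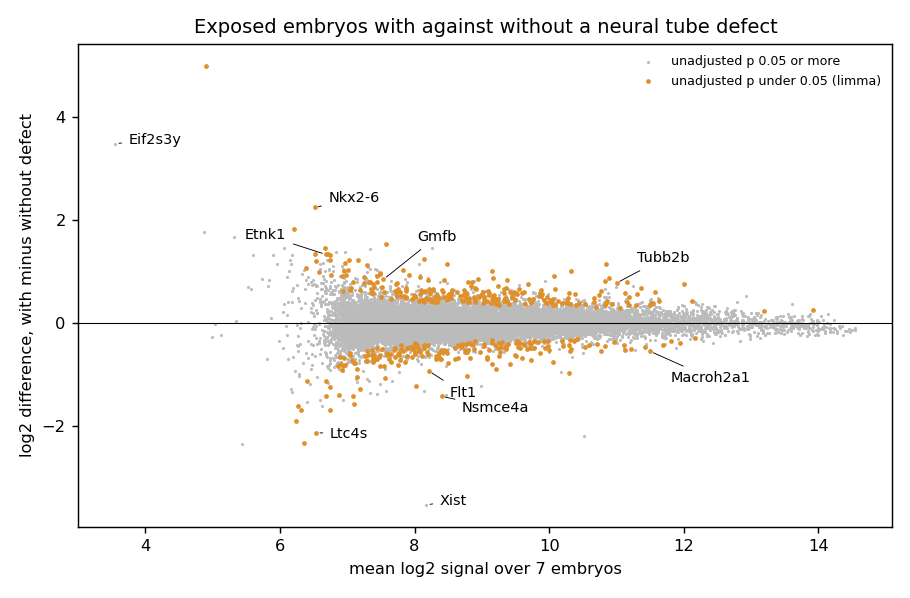
Log2 difference of each tested probe set, with minus without NTD, against its mean log2 signal over the 7 embryos, with probe sets at an unadjusted limma p under 0.05 in orange. Differences spread most at low signals, and Xist and Eif2s3y, which follow exposed embryo 2 with NTD, lie among the most distant points without an unadjusted p under 0.05, below a topmost point that is a probe set with no single gene symbol, high in the same embryo and in the controls.

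The genes that follow had the smallest p in each direction or the widest gap among probe sets whose groups did not overlap, apart from Tbx5, which is in the list of heart muscle genes. None passed limma's adjusted threshold, so each is given by its values. In RNA of a whole embryo, fewer cells that express a gene and less RNA per cell cannot be told apart.

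Nkx2-6, a homeobox gene of the pharynx and the heart outflow region, had the smallest p of all. Its signals were 35.5, 35.2 and 49.7 without NTD (exposed embryos 1, 2 and 3, in that order throughout), 221 and 159 with NTD (exposed embryos 1 and 2), and 148 and 172 in the controls. The embryos with NTD were thus at the level of the controls, and the 3 without were below the 40th percentile of their arrays. The probe set passed the filter only through embryos with NTD and controls. The log2 difference was 2.24 ± 0.38 (SE) with a 95% interval of 1.39 to 3.09, and over 17 alternatives it ranged from 1.40 to 2.48. Hlx, another homeobox gene, had signals of 38.8, 76.5 and 82.8 without NTD and 185 and 159 with it, a log2 difference of 1.45 ± 0.43 (SE). Its controls, at 161 and 94.2, spanned the gap, and the 3 embryos without NTD were again below the 40th percentile. Hlx too passed the filter only through embryos with NTD and a control. Tbx5, a T-box factor of the heart, was split within the group without NTD, at 375, 51.1 and 48.9, and read 256 and 275 with NTD, so that the groups overlapped.

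Brighter transcripts were also among those higher with NTD. Tubb2b, a beta-tubulin of neurons, had signals of 1097, 1873 and 1609.8 without NTD and 2613 and 2487 with it, against 2856 and 2487 in the controls. Both embryos with NTD were again at the level of the controls, and the log2 difference was 0.78 ± 0.21 (SE). Txnrd1, the cytosolic thioredoxin reductase, followed the same order, with 1724, 2056 and 1983 without NTD, 2561 and 2856 with it and 2707 and 2622 in the controls. Ndufb8, a subunit of respiratory complex I, was measured at 4031, 3895 and 3503 without NTD and at 5241 and 4978 with it, a log2 difference of 0.43 ± 0.12 (SE). Tsen15, a subunit of the endonuclease that splices tRNA, had 461, 608 and 511 without NTD and 829 and 744 with it. For these 4 genes the direction was the same under each of 18 alternatives. The alternatives refit the same embryos by which the genes were chosen, so they give no independent support.

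Other genes had lower signals with NTD. Macroh2a1, which encodes the histone variant macroH2A1, had signals of 3685, 3729 and 3402 without NTD, 2315 and 2611 with it, and 2507 and 2413 in the controls. The gap between the groups was wide against the spread within them, with a log2 difference of -0.55 ± 0.12 (SE) and a 95% interval of -0.83 to -0.28. Spen, a corepressor that binds RNA, was as even within the groups, at 443, 420.0 and 421 without NTD, 272 and 272 with it and 288 and 259 in the controls. Its log2 difference was -0.65 ± 0.15 (SE). Myo18a, an unconventional myosin, had 1148, 890.2 and 1158 without NTD and 655 and 627 with it, both below the controls at 766 and 876. Slc6a6, the taurine transporter, read 590.2, 549 and 449 without NTD and 341 and 311 with it, near the controls at 289 and 297. Fxr2, a relative of the fragile X protein that binds RNA, had 621, 468 and 518 against 356 and 311, and its controls, at 496 and 479, were with the embryos without NTD.

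The widest gaps on the lower side came from dim probe sets. Ltc4s, leukotriene C4 synthase, had signals of 212, 217 and 215 without NTD and 32.1 and 74.9 with it, a log2 difference of -2.13 ± 0.53 (SE). Atf7, a transcription factor of the ATF family, had 192, 169 and 95.9 against 18.3 and 45.4 at 1425653_at, which is not its brightest probe set. Tgm3, a transglutaminase of skin, had 170.0, 197 and 146 against 86.1 and 32.6. The log2 difference of Tgm3 was -1.68, and -0.98 without exposed embryo 2 with NTD. The controls were unequal for all 3 genes, at 29.5 and 87.2 for Ltc4s, 58.0 and 167 for Atf7, and 75.2 and 159 for Tgm3. For all 3 genes the embryos with NTD were below the 40th percentile of their arrays. Both controls were below it for Ltc4s, which thus passed the filter only through embryos without NTD. Atf7 and Tgm3 passed it through embryos without NTD and a control.

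**Figure D3:**
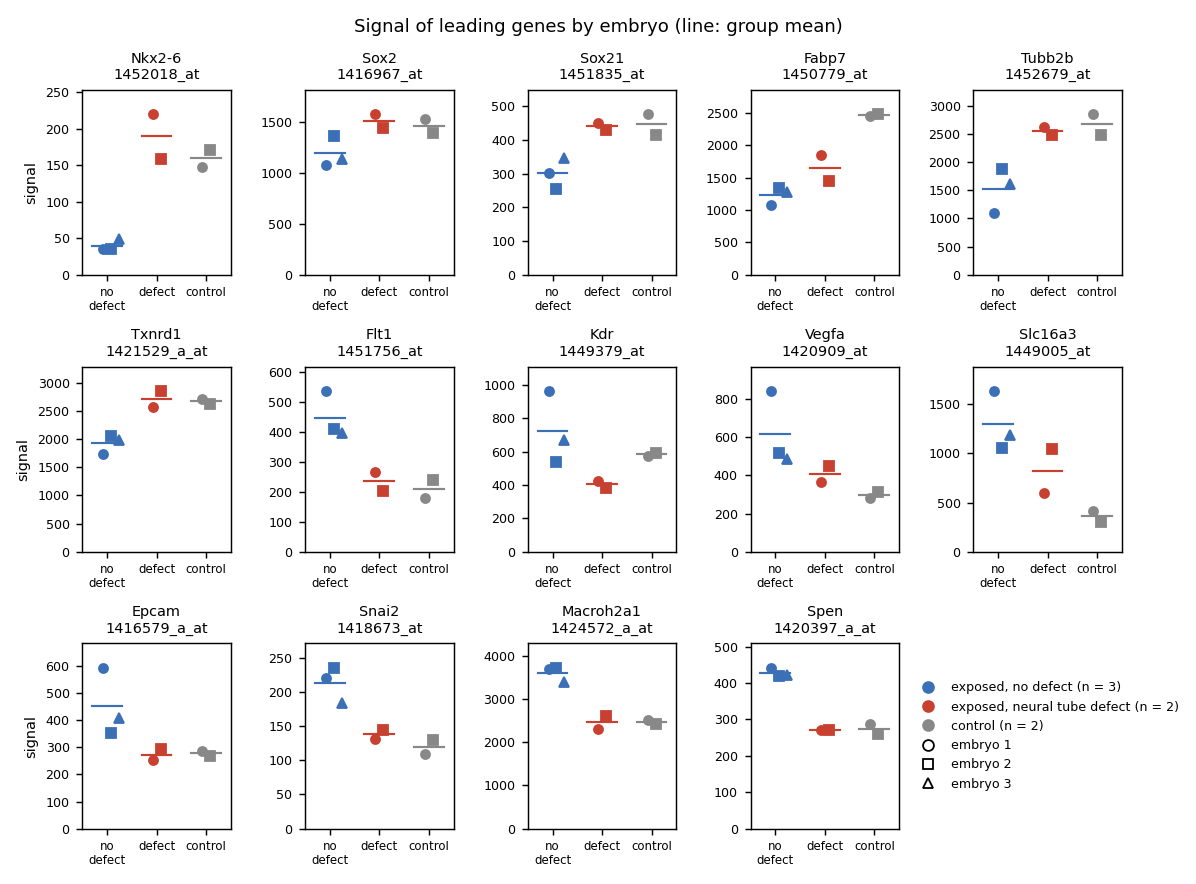
Signal (linear MAS5 intensity, axis from 0) of 14 genes in each of the 7 embryos, with 1 point per embryo and a line at each group mean. In each of them the 2 embryos with NTD lie outside the range of the 3 without, as for Nkx2-6 (159 and 221 against 35.2 to 49.7) and Macroh2a1 (2315 and 2611 against 3402 to 3729).

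Etnk1 and Gmfb are the genes that the study named for this comparison. Etnk1, ethanolamine kinase, starts the synthesis of phosphatidylethanolamine, and Gmfb, glia maturation factor beta, acts on actin branches. At 1433515_s_at, Etnk1 had signals of 42.3, 50.3 and 69.1 without NTD, 123 and 143 with it, and 206 and 224 in the controls. The 3 groups did not overlap and those with NTD stood in the middle, with a log2 difference of 1.33 ± 0.35 (SE), a 95% interval of 0.55 to 2.11 and a ratio of mean signals of 2.47. At 1417069_a_at, Gmfb had the same order, with 89.3, 130.4 and 117 without NTD, 219 and 181 with it and 383 and 372 in the controls. Its log2 difference was 0.85 ± 0.23 (SE), with a 95% interval of 0.32 to 1.37. At both probe sets the 3 embryos without NTD were below the 40th percentile of their arrays, as was exposed embryo 1 with NTD for Etnk1. Both thus passed the filter only through embryos with NTD and controls. These probe sets were among the 33 above, and for both limma's adjusted p was 0.999. The exact permutation p was 0.1 for each, the smallest that 2 against 3 embryos allow. Neither is in the study's list of genes that differed between control and exposed embryos. That list holds 1454633_at of Etnk1 and 1431686_a_at of Gmfb, where the groups overlapped and the adapted criteria were not met. No source used here tells which probe sets the study used for this comparison.

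Other probe sets of the same genes differed from 1433515_s_at and 1417069_a_at. The brightest one of Etnk1, 1433514_at, had 651, 683 and 925 without NTD and 656 and 872 with it, a log2 difference of 0.024 with a 95% interval of -0.41 to 0.46. At 1454633_at the groups overlapped, at 127, 76.6 and 107 against 153 and 125, and the log2 difference was 0.45 ± 0.28 (SE). The brightest one of Gmfb, 1448570_at, gave 0.049 with an interval of -0.33 to 0.42, the dim 1431686_a_at gave 0.75 ± 0.38 (SE) and 1448571_a_at gave 0.27 ± 0.23 (SE). Of the 12 probe sets of smallest p in each direction, 6 of those higher and 4 of those lower with NTD were not the brightest of their gene, against 35.4% of the 13400 tested probe sets with 1 symbol. Tfrc, the transferrin receptor, had a log2 difference of 0.86 at 1422966_a_at and 0.08 at its brightest probe set. For Ier5, an immediate early gene, the values were 1.82 and 0.05, for Nsmce4a -1.43 and -0.15, and for Gnai2, an inhibitory G protein subunit, -0.97 and -0.08. Scd2, a fatty acid desaturase, had 0.67 at 1415823_at, 0.84 with overlap at 1415824_at, and 0.12 at its brightest one. Which transcript forms these probe sets read was not tested.

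**Figure D4:**
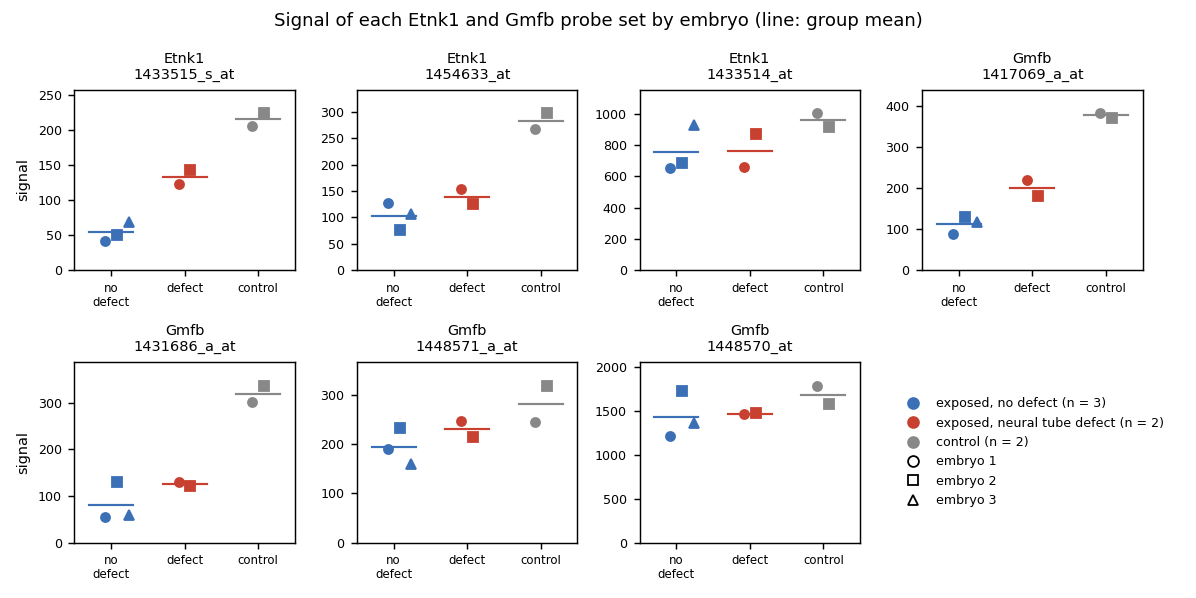
Signal (linear MAS5 intensity, axis from 0) of the 3 Etnk1 and 4 Gmfb probe sets in each of the 7 embryos, with 1 point per embryo and a line at each group mean. At 1433515_s_at and 1417069_a_at the 3 groups are apart, while the brightest probe sets, 1433514_at and 1448570_at, overlap between embryos with and without NTD.

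Genes needed for neural tube closure had a median near that of all genes. Each gene enters a list by its brightest tested probe set, and over all 8657 genes the median log2 difference was -0.02, with 46.0% higher with NTD. The groups did not overlap for 554 of these genes with NTD higher (6.4%) and 845 with NTD lower (9.76%), and an unadjusted p under 0.05 was found for 90 higher (1.04%) and 127 lower (1.47%). Of 67 closure genes 49 were tested, and their median log2 difference was 0.01, with 25 higher and 24 lower. The range was narrow, from -0.51 to 0.29, and 0 passed limma's adjusted threshold. Without overlap, 2 were higher and 8 lower, and 1 had an unadjusted p under 0.05. That gene was Spint2, an inhibitor of serine proteases at epithelial surfaces, with 732, 651 and 708 without NTD and 591 and 413 with it, a log2 difference of -0.49 ± 0.19 (SE). It was -0.24 without exposed embryo 2 with NTD and -0.75 without exposed embryo 1 with NTD. Apaf1, which starts the caspase cascade, was the member highest with NTD, at 377, 459 and 411 against 485 and 533. Enah, an actin regulator, had 2457, 2967 and 3076 against 2415 and 2214, and Cited2, a coactivator whose loss opens the neural tube, had 2236, 2063 and 2166 against 1931 and 1582.

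The 7 genes that the study linked to NTD were Adam10, Hif1a, Pdgfra, Tfrc, Tgfbr1, Twsg1 and Vcl, a list chosen by the study from genes that differed between control and exposed embryos on these arrays. The groups overlapped for all 7 at their brightest probe sets, and the log2 differences ran from -0.10 for Hif1a to 0.13 for Adam10. Pdgfra, a receptor of platelet-derived growth factor, had 1161, 1186 and 1387 without NTD and 1435 and 1215 with it. The study's list of genes that differed between control and exposed embryos holds dimmer probe sets of these genes. There the log2 differences were 0.28 for Adam10, 0.57 for Hif1a, 0.27 for Pdgfra and 0.63 for Tfrc. They were 0.41 for Tgfbr1, 0.74 for Twsg1 and 0.08 for Vcl, and the groups overlapped for all but Tfrc. Of the 13 dimmer tested probe sets of these genes 10, from 6 of the genes, had a log2 difference above the 0.13 of Adam10. These 10 included 0.63 ± 0.28 (SE) at 1422967_a_at for Tfrc and 0.57 ± 0.29 (SE) at 1448183_a_at for Hif1a, a transcription factor of the hypoxia response. The highest was 1.01 ± 0.41 (SE) at 1420894_at for Tgfbr1, a TGF-beta receptor, and Twsg1, a BMP-binding protein, had 0.54 ± 0.22 (SE) at 1421832_at and 0.74 ± 0.53 (SE) at 1426179_a_at. At 1426179_a_at all 5 exposed embryos, at 26.2 to 97.1, were below the 40th percentile, and the probe set passed the filter only through the controls. At 1422967_a_at of Tfrc the 3 embryos without NTD were below it, at 78.6 to 84.4. Pax3, the transcription factor of the dorsal neural tube whose loss causes NTD, had signals of 413, 596 and 416 without NTD and 531 and 332 with it. The groups overlapped, and its log2 difference of -0.16 had a 95% interval of -0.68 to 0.37. Pole4, a subunit of DNA polymerase epsilon, had 412, 559 and 633 against 577 and 520.3, a log2 difference of 0.06.

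Genes of neural progenitors lay on the higher side with NTD. Of 15 tested, 11 were higher, 4 did not overlap with NTD higher against a background of 6.4%, 3 had an unadjusted p under 0.05 beside 1.04% of all genes, and 0 an adjusted one. The median log2 difference was 0.14. By embryo, the list stood at 0.017, 0.12 and -0.096 without NTD and at 0.16 and 0.10 with it, so that the groups overlapped. Sox2, which keeps neural progenitors undifferentiated, had signals of 1079, 1355 and 1135 without NTD, 1576 and 1433 with it, and 1521 and 1385 in the controls. Its relative Sox21 had 302, 254 and 346 without NTD, 450.5 and 430.2 with it, and 478 and 414 in the controls, a log2 difference of 0.56 ± 0.18 (SE). For both genes the embryos with NTD were at the level of the controls. Fabp7, a lipid-binding protein of radial glia, had 1080.2, 1332 and 1275 without NTD and 1845 and 1439.6 with it, below the controls at 2451 and 2483. The list was not uniform, since Notch1 had a log2 difference of -0.37 ± 0.21 (SE) with overlap. Without exposed embryo 1 with NTD, the median was 0.10 and 0 of the 15 had an unadjusted p under 0.05.

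Of the markers of neurons 26 were tested. The median log2 difference was 0.05, with 17 higher, and 3 were higher without overlap, beside 6.4% of all genes. Elavl3, a neuronal RNA-binding protein, had 489, 593 and 669 without NTD and 732 and 714 with it, and Gap43, of growth cones, 593, 645 and 728 against 774 and 828. The dorsal and ventral patterning genes of the neural tube had a median of -0.05 over 18 genes. Of 10 tested genes of forebrain, midbrain and hindbrain patterning 4 were lower without overlap, beside 9.76% of all genes, and the median was -0.13. They were Lhx2 and Six3, of the eye field and forebrain, Dlx5, of the anterior neural ridge, and Wnt1, of the midbrain and dorsal midline. Lhx2 had 642, 549 and 504 without NTD and 451 and 465 with it, and Wnt1 had 230.3, 220 and 208 against 166 and 191. All 4 had a log2 difference of about -0.30, with a 95% interval that included 0.

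In the neural crest list 1 of 16 genes was lower at an unadjusted p under 0.05, beside 1.47% of all genes. It was Snai2, a repressor of E-cadherin in migrating crest and mesenchyme, with signals of 221, 236 and 184 without NTD, 131 and 145 with it, and 109 and 129 in the controls. The log2 difference was -0.62 ± 0.24 (SE), and Snai1, its relative, had -0.15. Among 23 Hox genes the median was -0.02, and Hoxc8, of the trunk, was the 1 member higher at an unadjusted p under 0.05, beside 1.04% of all genes, at 547, 711 and 554 against 915 and 715. Its log2 difference was 0.43, and 0.25 without exposed embryo 1 with NTD. Hoxc9, its neighbour in the cluster, had 246, 391 and 457 against 253 and 255, with overlap and a log2 difference of -0.47.

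Receptors of vascular endothelial growth factor were among the genes lower with NTD. Flt1, which encodes VEGF receptor 1, had signals of 537, 409 and 397 without NTD, 267 and 202 with it, and 181 and 239 in the controls. The embryos with NTD were at the level of the controls, and the log2 difference was -0.93 ± 0.22 (SE), with a 95% interval of -1.42 to -0.44. Kdr, which encodes VEGF receptor 2, had 965, 539 and 672 without NTD and 424 and 383 with it, both below the controls at 574 and 592. Its log2 difference was -0.81 ± 0.22 (SE). Nos3, the endothelial nitric oxide synthase, had 277, 310.0 and 263 against 227 and 184, and Emcn, an endothelial sialomucin, 528, 524 and 591 against 462 and 408. Of 18 tested endothelial genes 6 were lower without overlap and 1 higher, beside 9.76% and 6.4% of all genes, and the median log2 difference was -0.11. At an unadjusted limma p under 0.05, 3 were lower and 0 higher, beside 1.47% and 1.04% of all genes, and 0 passed the adjusted threshold. Cdh5, the cadherin of endothelial junctions, was level at 301, 357 and 338 against 308 and 344. Tal1, a regulator of blood and endothelium, was the member higher without overlap, at 395, 499 and 497 against 510 and 648. With both exposed embryo 1 without NTD and exposed embryo 2 with NTD left out, the log2 differences were -0.59 for Flt1 and -0.50 for Kdr, and 0 endothelial genes had an unadjusted p under 0.05.

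The ligand Vegfa was lower as well. Its signals were 844, 518 and 487 without NTD, 366 and 452 with it, and 282 and 314 in the controls, a log2 difference of -0.55 ± 0.24 (SE), and its second probe set gave -0.52. Without exposed embryo 1 without NTD, the highest, the difference was -0.30. Vegfa belongs to a list of 25 tested genes of the hypoxia response and glycolysis, of which 23 were lower with NTD and 6 were so without overlap, beside 9.76% of all genes. The median of the list was -0.23, and 3 genes were lower at an unadjusted p under 0.05, beside 1.47% of all genes. Besides Vegfa they were Slc16a3, a lactate exporter, and P4ha1, a collagen prolyl hydroxylase. Slc16a3 had 1639.6, 1059 and 1187 without NTD and 600.2 and 1045 with it, against 418 and 306 in the controls. P4ha1 had 1529, 814 and 818 against 539 and 783. The gap between the groups was narrow for both, at 1045 against 1059 for Slc16a3 and 783 against 814 for P4ha1. Without exposed embryo 1 with NTD, the log2 difference went from -0.68 to -0.28 for Slc16a3 and from -0.63 to -0.36 for P4ha1. By embryo, the list stood at 0.37, -0.14 and -0.20 on the log2 scale without NTD and at -0.36 and -0.10 with it, relative to the mean of the former. The groups overlapped on this scale, and the controls, at -0.77 and -0.67, were lower than all 5. With exposed embryo 1 without NTD left out, whose Rbp4 and Apoa2 were high, the median was -0.052, with 19 of 25 lower and 0 at an unadjusted p under 0.05. With exposed embryo 1 with NTD left out instead, it was -0.10, with 16 lower and again 0 at that threshold. Without exposed embryo 2 with NTD it was -0.36, with 23 lower and 3 at that threshold, and with both exposed embryo 1 without NTD and exposed embryo 2 with NTD left out it was -0.22, with 23 lower and 2 at it.

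Epithelial genes also stood highest in that embryo. Epcam, an adhesion molecule of epithelia, had signals of 595, 355 and 409 without NTD, 254 and 294 with it, and 288 and 269 in the controls. Its log2 difference was -0.70 ± 0.22 (SE), and -0.48 without exposed embryo 1 without NTD. The list of 15 surface ectoderm and epithelial genes had a median of -0.15, which became 0.0088 without that embryo. Transcripts of yolk sac endoderm and liver showed the most, with all 10 tested genes lower with NTD and a median of -0.54. In exposed embryo 1 without NTD this list stood at 1.21, in embryos 2 and 3 without NTD at -0.61 and -0.41, and in those with NTD at -0.68 and -0.51. Without that embryo the median was 0.03, with 6 genes higher and 4 lower.

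**Figure D5:**
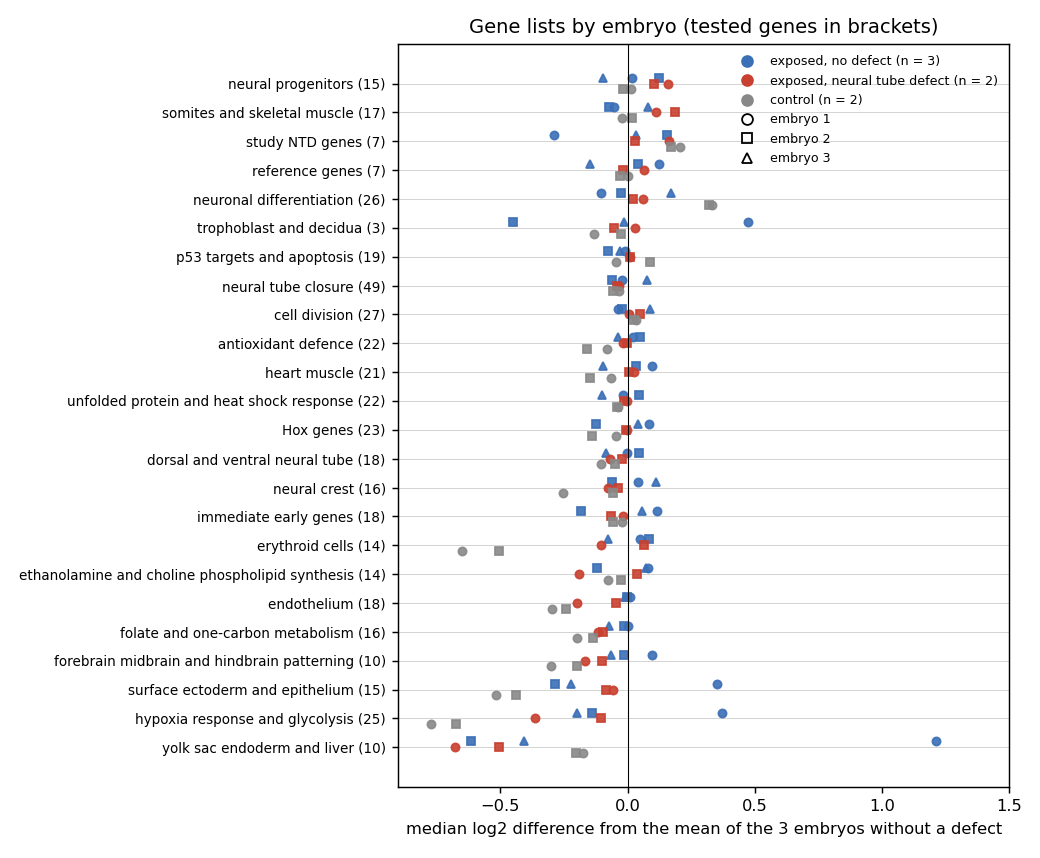
Level of each gene list in each embryo, as the median over its tested genes of the log2 difference from the mean of the 3 embryos without NTD, with 1 point per embryo. Lists are ordered by the median difference between the groups, and exposed embryo 1 without NTD stands apart for yolk sac endoderm and liver (1.21) and for hypoxia response and glycolysis (0.37).

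The lists tied to folate and phospholipids lay slightly on the lower side with NTD. Of 16 tested genes of folate and one-carbon metabolism 12 were lower with NTD, 4 of them without overlap beside 9.76% of all genes, and the median was -0.12. By embryo, this list stood at 0.0025, -0.015 and -0.075 without NTD and at -0.12 and -0.098 with it, without overlap. Its median was -0.064 without exposed embryo 1 without NTD. Mthfd1, which interconverts folates, had 1536, 1399 and 1579 without NTD and 1231 and 1286 with it, and Slc19a1, the reduced folate carrier, 750.2, 596 and 526 against 501 and 499.6. Folr1, a folate receptor, had 326, 210 and 163 against 178 and 139, with overlap. None of these had an unadjusted p under 0.05. In the 14 genes of ethanolamine and choline phospholipid synthesis, the pathway of Etnk1, the median was -0.10, and Pcyt1a, the rate-limiting enzyme of phosphatidylcholine synthesis, was the 1 member lower without overlap, at 357, 344 and 391 against 320.3 and 307, beside 9.76% of all genes. Without exposed embryo 1 with NTD the median of this list was 0.037, with 9 higher and 5 lower.

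Lists of cell division, apoptosis, antioxidant defence and stress had medians near that of all genes. They were 0.01 for 27 genes of cell division, 0.03 for 19 p53 targets and genes of apoptosis, -0.01 for 22 antioxidant genes and -0.02 for 22 genes of the unfolded protein and heat shock response. In the last of these Atf4, a transcription factor of the stress response, had 3846, 2208 and 2626 without NTD and 1927 and 2039 with it, a log2 difference of -0.51 ± 0.21 (SE) that was -0.28 without exposed embryo 1 without NTD. Asns, an asparagine synthetase that Atf4 controls, had 2964, 1667 and 1546 against 1261 and 1675, with the highest value in the same embryo. Immediate early genes had a median of -0.07 over 18, heart muscle genes -0.02 over 21, somite and skeletal muscle genes 0.10 over 17, erythroid genes -0.08 over 14 and reference genes 0.06 over 7. Without exposed embryo 1 with NTD the erythroid median was 0.066, and without exposed embryo 1 without NTD that of the immediate early genes was 0.011. Of the 3 trophoblast and decidua genes above the filter 2 were higher and 1 lower, with a median of 0.03. The study's list of genes that differed between control and exposed embryos, chosen on these arrays, had 89 of its 129 probe sets tested. Of these 71 were higher with NTD. Without overlap 17 were higher and 2 lower, beside 7.58% and 8.49% of all probe sets. The median log2 difference of the list was 0.32 and 0 passed limma's adjusted threshold. At an unadjusted limma p under 0.05, 12 were higher and 1 lower, beside 239 and 201 of all 14554 probe sets. Both directions of that other comparison are pooled there. Of 72 probe sets with a lower mean in exposed embryos than in controls 66 were higher with NTD, with a median of 0.42, and of 17 with a higher mean 12 were lower, with a median of -0.11. The comparison with controls uses the same exposed embryos, so that the directions are not independent. The list holds 2 probe sets of the Y chromosome, of Kdm5d and Uty, and that of Uty is among the 12, at 58.6, 30.1 and 61.3 against 61.2 and 235.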

How the data were processed

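RNA of 7 whole embryos was hybridized to 1 Affymetrix 430A 2.0 array each, a one-colour array. The authors deposited linear MAS5 intensities, already scaled on each array. No source used here gives the version of MAS5, and present or absent flags played no part. Groups came from the labels. The 22690 probe sets include 64 controls, which were not tested. By the array annotation 20393 have 1 gene symbol, 691 several and 1606 none, and the last 2 kinds entered no list.

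Signals below 1 were set to 1 and put on the log2 scale, with no further normalization. Probe sets that reached the array's 40th percentile on at least 2 arrays were fitted with limma 3.58.1 in R 4.3.3, with 3 groups over 7 arrays and eBayes with a mean-variance trend. The Benjamini-Hochberg threshold was 0.05. The study's methods name Welch's test and Cyber-T without settings for the latter, so a regularized test stood in for it (window 101, confidence 10). The false discovery rate and the detection flags of those methods were not part of the adapted criteria. These scripts were tested on simulated data.

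Genes were named by a rule: Etnk1 and Gmfb, the 12 of smallest p and the 12 of largest difference among those without overlap and an unadjusted p under 0.05 in each direction, the study's 7 NTD genes, Pax3, Pole4, genes of the sex chromosomes and yolk sac, and up to 4 of smallest p from each of 25 lists. Cdh5 was named in addition, after its values were seen. The comparison, the members and the lists were chosen with earlier results of these data known. Alternatives covered normalization, floor, offset, filter, trend, array weights, the arrays in the fit, a replicate block and each embryo left out. The number of arrays limits the precision. Other tools were statmod 1.5.0, Python, pandas, NumPy, SciPy and Matplotlib.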

Additional observations from a re-analysis of the deposited data

How the results depend on the processing

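limma called 0 probe sets under 17 of 18 alternatives, and 2 without exposed embryo 1 with NTD, both of Xist, where exposed embryo 2, low in Xist, stood alone and was assumed to vary like the other groups. After Benjamini-Hochberg adjustment, chosen after seeing the data, the methods' Welch test called 0 and the regularized test 0, 1 and 4 with a confidence of 5, 10 and 20. With the number of an embryo as a replicate block the count was 0, with 306 higher and 221 lower at an unadjusted p under 0.05. Embryo 3 without NTD has no partner there, and the numbers name embryos without pairing them (the differences of number 1 and number 2 correlated at -0.20 across probe sets between the groups). Leaving out 1 embryo at a time gave 0 to 2 calls, 140 to 811 probe sets higher and 159 to 557 lower at an unadjusted p under 0.05, with the most in both directions without exposed embryo 2 without NTD. It gave 21 to 63 that met the criteria adapted from the methods, and, with fewer embryos to separate, 1844 to 2866 higher and 1989 to 3242 lower without overlap. The adapted criteria could not be computed with 1 embryo with NTD. With no filter on low signals, 359 probe sets were higher and 378 lower at an unadjusted p under 0.05, 135 met the adapted criteria, and 1690 higher and 2029 lower did not overlap, out of more probe sets. With the 60th percentile filter 118 were lower at an unadjusted p under 0.05, 13 met the criteria and 780 were lower without overlap, out of fewer. With an offset of 50 the criteria gave 18. The log2 difference stayed above 0 for Etnk1 at 1433515_s_at (0.82 to 1.52) and for Gmfb at 1417069_a_at (0.63 to 0.99) under all alternatives that gave a value. Of 1161 values of 66 probe sets under the alternatives 1143 kept their direction, and the 18 that did not were of probe sets near 0, where the cause was not tested. Etnk1 at 1433514_at was -0.010 with array quality weights and -0.18 to 0.23 with 1 embryo left out. Twsg1 was 0.070 with the replicate block and -0.21 to 0.070 with 1 embryo left out. With 1 embryo left out, the ranges were -0.074 to 0.36 for Adam10, -0.063 to 0.19 for Gmfb at 1448570_at, -0.031 to 0.21 for Pdgfra, -0.28 to 0.44 for Tfrc at 1452661_at, -0.065 to 0.25 for Tgfbr1 and -0.071 to 0.27 for Vcl. With both exposed embryo 1 without NTD and exposed embryo 2 with NTD left out, an alternative chosen after seeing the data, values were -0.28 for Etnk1 at 1433514_at, -0.069 for Gmfb at 1448570_at, -0.23 for Tfrc at 1452661_at and -0.023 for Vcl, and limma called 0. Of 474 list medians under alternatives 27 moved by more than the spread between embryos.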
